A study of Homo sapiens with 72 samples.

Results

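The BCL2 family was followed here as mRNA through cancer cell lines that had lost the catalytic activity of the terminal uridyl transferases TUT4 and TUT7, enzymes that add uridines to the 3′ ends of RNAs. The members were taken from a list of 10 gene symbols, and all 10 were found among the 26485 genes of the deposited mRNA count tables. All 10 also passed the filter on low counts, as 15556 genes did in all. They comprise 4 antiapoptotic members (BCL2, BCL2L1, BCL2L2 and MCL1), 2 effectors (BAX and BAK1) and 4 BH3-only members (BCL2L11, BID, BBC3 and PMAIP1). The libraries came from DU145, a prostate cancer line without LIN28A, from DU145 cells transduced with a lentivirus that drives LIN28A from the CMV promoter and selected with puromycin, and from IGROV1, an ovarian cancer line that makes its own LIN28A. In each of these lines wild-type cells were compared with 2 TUT4/7 double mutants made with a Cas9 nickase aimed at exon 12 of TUT4 and exon 14 of TUT7. Each of the 9 groups held 4 poly(A)-selected mRNA libraries and 4 small RNA libraries, whose replicates are successive passages of one culture, so that the p-values measure the spread between passages. Each mutant group goes back to 1 clone, and the effect of the mutation and the history of that clone cannot be told apart within it. The labels of some mutants count the clone name up with each replicate, which was read here as successive passages. The transduced mutants bear the same clone names as the DU145 mutants, so that the 6 mutant groups hold 4 edited lineages. In DU145 the passage numbers of the wild type are far above those of the mutants, which cannot be told apart from the edit either. In IGROV1 the wild type is also at a higher passage than the mutants, replicate for replicate. DU145-derived cells and IGROV1 cells were also grown in different media (EMEM and RPMI). Apart from the puromycin selection of the transduced cells, no group received a drug or a death stimulus.

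BCL2 proteins decide whether the outer mitochondrial membrane stays intact. BAX and BAK1 form the pores through which cytochrome c escapes, the antiapoptotic members hold them in check, and BH3-only proteins either bind the antiapoptotic members or activate the pore formers directly. Many members are regulated after transcription, and miRNAs of the miR-15/16, miR-17, miR-34 and miR-200 families have been described as regulators of one or another of them. The study itself named BCL2 from these libraries, so the direction of BCL2 given below is not independent evidence.

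Sequencing depth and the targeted genes were examined first. The mRNA libraries held 7195437 to 25054688 reads in genes (median 13444850), and the small RNA libraries 5707942 or more miRNA reads (median 8859640). TUT4 mRNA (listed as ZCCHC11) fell from 78.0 ± 6.10 CPM (counts scaled to the library's reads in genes, mean ± SD, n = 4) in IGROV1 wild type to 26.6 ± 10.8 and 27.1 ± 6.94 CPM in its mutant clones, and by 2.22 on the log2 scale in DU145 clone 1. In DU145 clone 2 (41.7 CPM) and in clone 2 of the LIN28A-overexpressing cells (60.9 CPM) it was not called changed, while TUT7 mRNA (ZCCHC6) was called lower in all 6 mutants. An edit that removes the catalytic site need not lower the mRNA, so these levels check the labels only in part. LIN28A was at 0 to 0.460 CPM in DU145 wild type, at 64.8 to 74.7 CPM in the transduced wild type, at 325 to 406 CPM and 229 to 320 CPM in its mutant clones, and at means of 202 to 266 CPM in the IGROV1 groups, so the transduced mutants and their wild type differ in LIN28A as well as in TUT4/7. Of 5 ovarian markers tested between the wild types, 3 were called higher in IGROV1, among them PAX8 at 640 CPM, and MUC16 and MSLN were called lower there (2.11 against 23.1 CPM and 0.538 against 33.2 CPM in DU145). The summed ovarian markers were lower in IGROV1 clone 2 (659 to 1024 CPM) than in the wild type (1315 to 1521 CPM). In that clone 3 of the 5 tested were called lower, FOLR1 (626 to 136 CPM), MUC16 (2.11 to 0.0667 CPM) and MSLN (0.538 to 0 CPM). PAX8 (530 CPM) and SOX17 (171 against 168 CPM) were not called there. In IGROV1 clone 1 only MUC16 (0.323 CPM) was called, also lower. Of 8 prostate markers, 7 stayed under 1 CPM in every DU145 library, and of 4 tested between the wild types 3 were called higher in IGROV1, HOXB13 (5.64 CPM), TMPRSS2 (0.810 CPM) and ACPP (11.9 CPM), so that neither marker list marks its line throughout. The 8 fibroblast and immune markers summed to 25.8 CPM or less. Their part in the results below was not tested. As a bulk measurement, a lower level in fewer cells cannot be told apart from less RNA in every cell. Against these backgrounds 3 libraries stood apart from the rest of their groups: replicate 1 of the LIN28A-overexpressing wild type, whose profile was nearer to DU145 wild type (r = 0.987) than to its own group (at best r = 0.975) although it held LIN28A at 71.2 CPM (replicate 4 of DU145 wild type was in turn nearest to it), and replicate 4 of both IGROV1 clones. The calls of members that changed without them are given with their values.

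The members were first ordered by their level in wild-type cells of IGROV1 and DU145. Levels were compared between genes as CPM per kb of exon. The length was the union of all annotated exons of a gene, 2.59 kb for BAX and 12.6 kb for BCL2. It need not be the length of the transcript made. The order between genes therefore depends on this choice, and no other length is given here. In DU145 MCL1 came first (88.5 ± 9.98 CPM per kb), then BCL2L1, which encodes BCL-XL (48.4 ± 5.81), and BID (20.2 ± 1.40), the BH3-only protein that links death receptors to mitochondria. BCL2 was last in both lines. Below BID, PMAIP1 and BAX followed, each with a range that overlapped that of the gene above it, then, below the range of BAX, BAK1, BCL2L11 and BCL2L2, whose ranges overlapped from one to the next, then BBC3 at 1.66 ± 0.858 CPM per kb. BCL2 stood at 0.0259 ± 0.0209 CPM per kb.

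The order was different in IGROV1. On these exon lengths BCL2L1 (88.1 ± 8.08 CPM per kb) led over MCL1 (63.2 ± 2.63) and BAX (50.0 ± 4.25), with no overlap between these neighbours. BAK1 and BBC3 did overlap (14.4 ± 0.656 and 13.6 ± 0.425), as did BCL2L2, BID and PMAIP1 at 4.79 to 4.90 CPM per kb. BCL2 was again last, at 0.813 ± 0.117 CPM per kb. The transduced DU145 wild type kept MCL1 and BCL2L1 on top (78.0 ± 24.9 and 37.6 ± 5.43 CPM per kb).

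**Figure D1:**
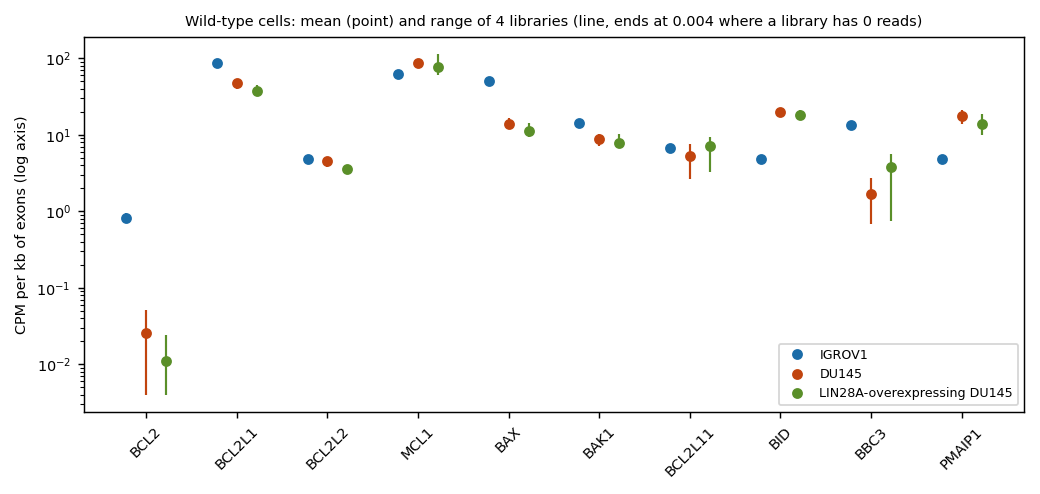
Levels of the 10 members in the wild-type cells of each line, as CPM per kb of exon on a log axis, with the mean of 4 libraries as a point and their range as a line. BCL2 lies lowest in all 3 lines, at 0.813 CPM per kb in IGROV1 and under 0.06 in DU145.

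Between these wild types edgeR's quasi-likelihood test, with p-values adjusted over all genes and a threshold of 0.01, called 7 of the 10 members, against 60% of all genes tested. The lines differ in tissue, donor and medium, so this share says little about the members. BCL2 was higher in IGROV1 by 4.98 ± 0.39 on the log2 scale (SE, adjusted p = 2.1e-13), on 719 reads against 13. BBC3, which encodes PUMA, a BH3-only protein induced by p53, was 8.55-fold higher (adjusted p = 1.1e-08), and BAX 3.81-fold higher (adjusted p = 2e-12). BID and PMAIP1 went the other way, being 3.94-fold and 3.46-fold lower in IGROV1. BCL2L1 (1.92-fold) and BAK1 (1.72-fold) were higher there, whereas MCL1, BCL2L2 and BCL2L11 were not called.

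In the mutants, the largest change of any member was that of BCL2 in IGROV1. The gene lies at chr18:63123346-63320128 on the minus strand (hg38) and overlaps no other gene of the tables. The 4 IGROV1 wild-type libraries held BCL2 at 9.06, 8.95, 11.9 and 11.1 CPM. Those of clone 1 held 85.5, 70.6, 66.0 and 59.5 CPM. Those of clone 2 held 79.0, 65.3, 65.2 and 64.9 CPM. Every mutant library lay above every wild-type library, the lowest mutant value being 59.5 CPM against a highest wild-type value of 11.9 CPM. BCL2 rose 7.15-fold in clone 1 (log2 fold change 2.84 ± 0.24, adjusted p = 9.3e-12) and 6.59-fold in clone 2 (2.72 ± 0.24, adjusted p = 2e-11). Both clones were compared with the same wild-type libraries. Neither call was lost under any alternative setting. Between the clones the level differed by -0.12 on the log2 scale, with a 95% interval of -0.57 to 0.33 and an adjusted p of 0.76, on 3929 and 5055 reads.

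The DU145-derived groups held almost no BCL2. Over the 4 libraries of each, 13 reads were counted in DU145 wild type, 11 in its clone 1 and 7 in its clone 2, and 7, 26 and 7 in the corresponding LIN28A-overexpressing groups. The highest library reached 0.661 CPM. Replicate 1 of DU145 wild type had 0 reads, which allows up to 0.307 CPM by counting error alone. No mutant of these lines passed the threshold for BCL2, although clone 1 of the transduced cells came nearest (0.427 ± 0.238 CPM against 0.140 ± 0.126 CPM, adjusted p = 0.044). At this depth a change of BCL2 by a few reads per library in DU145 was not detectable.

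**Figure D2:**
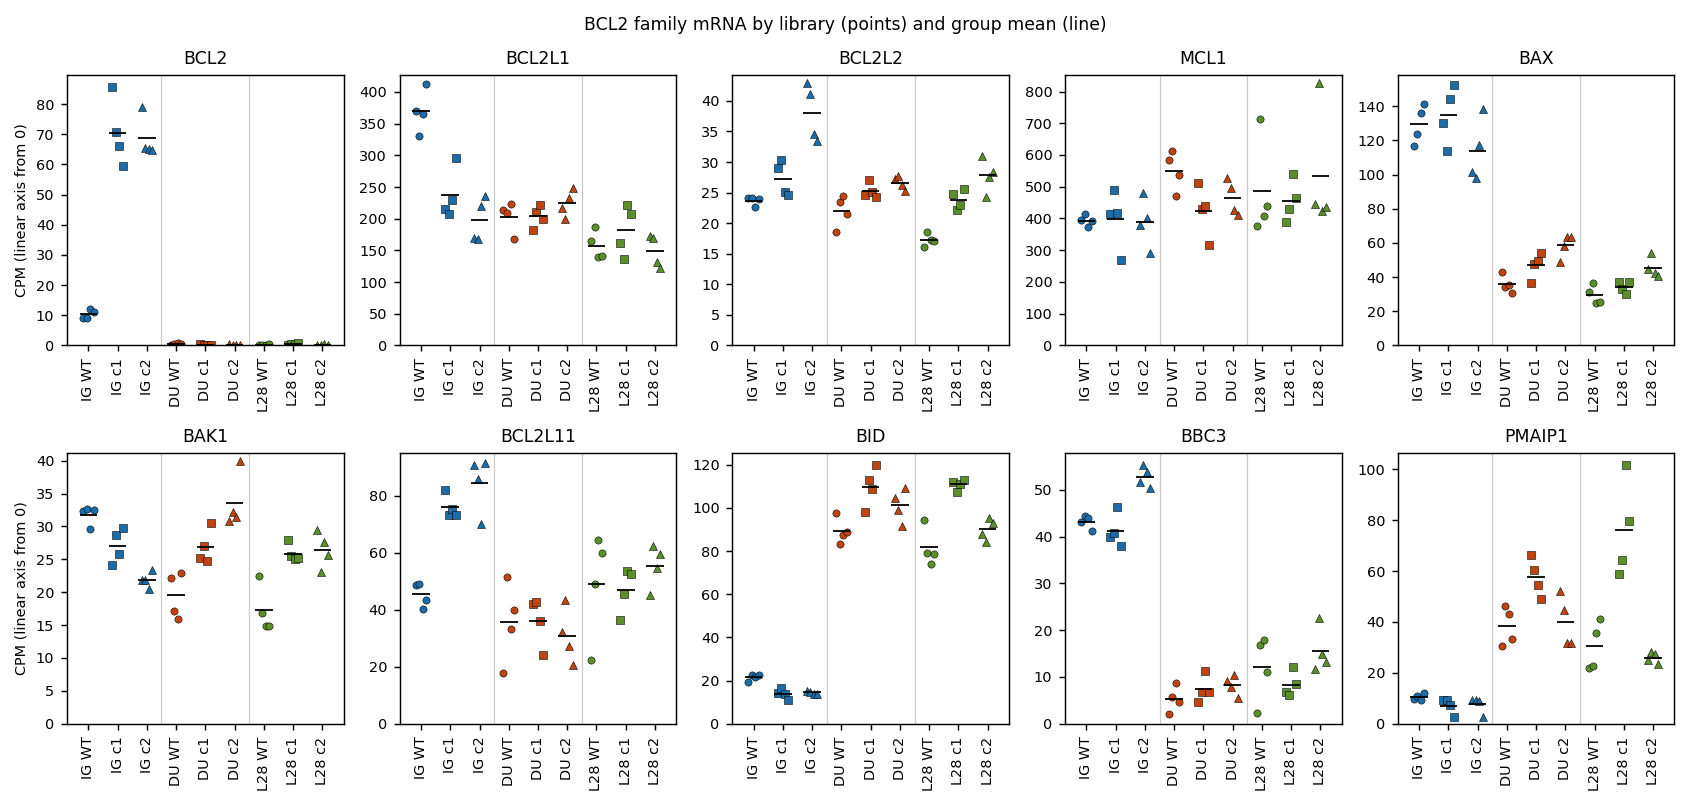
CPM of each member in the 36 mRNA libraries (points) with the mean of each group (line), on linear axes from 0. IG is IGROV1, DU is DU145, L28 is LIN28A-overexpressing DU145, WT is wild type, and c1 and c2 are the mutant clones. BCL2 sits between 59.5 and 85.5 CPM in the IGROV1 mutants and at 11.9 CPM or less elsewhere.

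BCL2L1 moved opposite to BCL2 in IGROV1. BCL-XL, its long product, is the antiapoptotic protein that many carcinomas rely on, and the short splice form, which promotes death, is counted under the same symbol here. Wild-type IGROV1 libraries had 371, 330, 365 and 413 CPM. In clone 1 the values were 215, 207, 230 and 296 CPM, and in clone 2 they were 169, 168, 220 and 235 CPM. No mutant library reached the lowest wild-type value. BCL2L1 fell by 0.57 ± 0.17 on the log2 scale in clone 1 (1.49-fold, adjusted p = 0.0055) and by 0.91 ± 0.17 in clone 2 (1.88-fold, adjusted p = 3.1e-05). The call in clone 1 was lost when wild-type replicate 1, 3 or 4 or clone 1 replicate 1, 2 or 3 was left out, with adjusted p of 0.012 to 0.025 and a log2 fold change of -0.57 to -0.49. In DU145 clones 1 and 2 BCL2L1 differed by 0.00 (95% interval -0.34 to 0.34) and 0.03 (-0.31 to 0.36). The gene lies at chr20:31664452-31723989 on the minus strand, opposite the noncoding gene ABALON.

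BCL2L2, which encodes BCL-W, rose in 3 of the 6 mutants. It was at 24.2, 24.1, 22.6 and 23.9 CPM in IGROV1 wild type and at 43.0, 41.1, 34.5 and 33.5 CPM in clone 2, without overlap, a 1.58-fold rise (log2 0.66 ± 0.09, adjusted p = 4.9e-07). In clone 1 it was at 24.6 to 30.4 CPM (log2 0.26 ± 0.09, adjusted p = 0.023), which DESeq2 called (adjusted p = 0.0024) and edgeR did not. DESeq2 in turn did not call BCL2L1 in that clone (adjusted p = 0.012). The LIN28A-overexpressing wild type had a mean of 17.2 ± 0.981 CPM, with libraries from 16.2 to 18.5 CPM. There clone 1 had 24.8, 22.1, 22.9 and 25.5 CPM (1.34-fold, adjusted p = 7e-04) and clone 2 had 31.0, 24.2, 27.6 and 28.4 CPM (1.47-fold, adjusted p = 2.4e-05), again without overlap. BCL2L2 shares exons with the read-through gene BCL2L2-PABPN1 at chr14:23298790-23311751, and its counts are uncertain to that extent.

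MCL1, a short-lived antiapoptotic protein whose mRNA turns over quickly, was called in 0 of the 6 mutants by edgeR and by DESeq2, with 0 at an unadjusted p under 0.05 as well. The gene lies at chr1:150560895-150579738 on the minus strand and overlaps ADAMTSL4 and its antisense gene. Its log2 fold changes ran from -0.38 in DU145 clone 1 to 0.07 in IGROV1 clone 1, and their 95% intervals reached from -0.78 to 0.46. Single libraries set much of its spread. Replicate 2 held 715 CPM in the transduced wild type and 826 CPM in the transduced clone 2, where the other libraries held 378 to 445 CPM. Replicate 4 held 270 CPM in IGROV1 clone 1 and 292 CPM in IGROV1 clone 2, under the 373 to 413 CPM of the IGROV1 wild type. Without the 3 libraries that stood apart the log2 fold changes in these clones were 0.20 and 0.056 (adjusted p = 0.43 and 0.85).

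The antiapoptotic members were also read as shares of their own sum per kb. BCL2 made up 0.518% ± 0.0735 of that sum in IGROV1 wild type, 4.24% ± 0.638 in clone 1 and 4.45% ± 0.657 in clone 2 (SD, n = 4). BCL2L1 went from 56.0% ± 2.80 to 43.2% ± 9.51 and 38.6% ± 7.88. The sum itself was at 151 to 167 CPM per kb in the wild-type libraries and lower in both clones, at 132 ± 6.60 and 123 ± 8.29 CPM per kb. By group means per kb of all annotated exons, BCL2 remained behind MCL1, BCL2L1 and BCL2L2 in both clones. It stood at 5.58 against 5.64 CPM per kb of BCL2L2 in clone 1 and at 5.44 against 7.86 in clone 2. These places and the shares depend on the exon length used, 12.6 kb for BCL2 and 4.84 kb for BCL2L2. A shorter length for BCL2 would raise its place and its share. In every DU145-derived group the mean BCL2 share was under 0.03%.

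Of the effectors, BAK1 was called lower in an IGROV1 clone and higher in 3 of the 4 DU145-derived ones. BAK1 (chr6:33572547-33580293, minus strand), which encodes the pore former that resides at the mitochondrion and overlaps GGNBP1 on the other strand, was at 32.4, 32.6, 29.6 and 32.6 CPM in IGROV1 wild type and at 21.8, 21.9, 20.5 and 23.3 CPM in clone 2, a fall of 0.56 ± 0.13 on the log2 scale (1.47-fold, adjusted p = 0.001). Clone 1, at 24.1 to 29.8 CPM, overlapped the wild type in its highest library and was not called (log2 -0.17 ± 0.14, adjusted p = 0.33). In DU145 wild type BAK1 was at 22.1, 17.1, 15.9 and 23.0 CPM. Clone 2 of DU145 was above all of these, at 30.8, 32.1, 31.4 and 39.9 CPM (1.59-fold, adjusted p = 0.00032), and clone 1, at 25.2, 27.0, 24.7 and 30.6 CPM, did not overlap with wild type either but missed the threshold (1.37-fold, adjusted p = 0.011). It passed without DU145 wild-type replicate 1 or 4 (adjusted p = 0.0059 and 0.0093) and with the replicate number as a block (adjusted p = 0.0049). The transduced wild type had 22.5, 16.8, 14.9 and 14.9 CPM. There BAK1 rose to 27.9, 25.4, 25.0 and 25.1 CPM in clone 1 (1.44-fold, adjusted p = 0.0028) and to 29.4, 23.1, 27.6 and 25.6 CPM in clone 2 (1.39-fold, adjusted p = 0.008). Neither of these 2 calls held in every fit without 1 library. The first was lost without wild-type replicate 3 or 4 or clone 1 replicate 1 (adjusted p = 0.011 to 0.022, log2 fold change 0.46 to 0.49). The second was lost without wild-type replicate 2, 3 or 4 or clone 2 replicate 1, 3 or 4 (adjusted p = 0.020 to 0.064, log2 fold change 0.38 to 0.47).

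BAX, the effector that moves from the cytosol to mitochondria, was called in 1 mutant. DU145 wild type had 43.0, 34.3, 35.1 and 30.5 CPM and clone 2 had 48.7, 58.4, 63.6 and 63.1 CPM, a rise of 0.59 ± 0.16 on the log2 scale (1.51-fold, adjusted p = 0.0051). The gene lies at chr19:48954815-48961798 on the plus strand. That call was lost when any one of 6 libraries was left out, namely replicate 2, 3 or 4 of the wild type or of clone 2. The adjusted p was then up to 0.033 and the log2 fold change 0.51 to 0.60. Clone 1 of DU145 lay at 36.3 to 53.9 CPM and overlapped with wild type (adjusted p = 0.064). In the transduced clone 2 BAX was 1.4-fold higher (adjusted p = 0.020) and passed without wild-type replicate 2 (adjusted p = 0.0059) or without the 3 libraries that stood apart (adjusted p = 0.0091). IGROV1 mutants did not differ beyond the spread between passages, with means of 135 ± 16.8 and 114 ± 18.3 CPM against 129 CPM in wild type (log2 0.13 ± 0.16 and -0.20 ± 0.16).

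Among the BH3-only members, BCL2L11 and BID were called in both IGROV1 clones, in opposite directions. BCL2L11 (chr2:111119378-111168444, plus strand) encodes BIM, which binds every antiapoptotic member. It overlaps MIR4435-2HG on the other strand, so its reads are uncertain in part. It was at 48.8, 49.1, 40.3 and 43.3 CPM in wild type, at 82.0, 73.1, 75.4 and 73.1 CPM in clone 1 and at 90.5, 85.9, 70.0 and 91.3 CPM in clone 2. The mutant and wild-type libraries did not overlap. BCL2L11 rose 1.74-fold in clone 1 (log2 0.80 ± 0.24, adjusted p = 0.0077) and 1.84-fold in clone 2 (log2 0.88 ± 0.24, adjusted p = 0.0037). Its spread over passages was wide in the other lines, from 17.7 to 51.3 CPM in DU145 wild type, and the shared estimate of spread is large for it. With any one of the 8 libraries of clone 1 and wild type left out, the call in clone 1 was lost (adjusted p = 0.011 to 0.022), as was the call in clone 2 without wild-type replicate 3 or 4 or clone 2 replicate 4 (adjusted p = 0.010 to 0.014). In the fits that lost the call the log2 fold change still lay between 0.76 and 0.86.

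BID (chr22:17734138-17774770, minus strand) was at 19.3, 22.6, 21.8 and 22.4 CPM in IGROV1 wild type. In clone 1 it was at 14.4, 16.5, 13.7 and 10.9 CPM and in clone 2 at 15.3, 14.7, 13.9 and 14.0 CPM, below every wild-type library. BID fell by 0.57 ± 0.10 on the log2 scale in clone 1 (1.48-fold, adjusted p = 2.1e-05) and by 0.59 ± 0.10 in clone 2 (1.51-fold, adjusted p = 9.5e-06). In the DU145-derived cells clone 1 went the other way. It was at 112, 107, 111 and 113 CPM in the transduced clone 1 against 94.6, 79.2, 74.2 and 78.8 CPM in the transduced wild type (1.31-fold higher, adjusted p = 0.0014). In DU145 clone 1 BID was 1.23-fold higher with an adjusted p of 0.016, which passed without DU145 wild-type replicate 1 (adjusted p = 0.0066) or clone 1 replicate 1 (adjusted p = 0.0078). Both clone 2 groups differed from their wild types by 0.06 or less on the log2 scale.

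PMAIP1 (chr18:59899996-59904305, plus strand) encodes NOXA, a BH3-only protein that binds MCL1. It had the largest change among the calls in the DU145-derived cells. The transduced wild type had 21.9, 22.8, 35.7 and 41.0 CPM, clone 1 had 59.1, 64.5, 102 and 79.8 CPM, and clone 2 had 25.0, 28.2, 27.3 and 23.5 CPM. Clone 1 alone lay above the wild type, 2.45-fold (log2 1.29 ± 0.26, adjusted p = 0.00019), and the clones differed from each other by 1.64 ± 0.26 (3.11-fold, adjusted p = 4.5e-06). DU145 clone 1 without LIN28A stood at 49.1 to 66.5 CPM against 30.7 to 46.4 CPM and was not called (log2 0.59 ± 0.26, adjusted p = 0.081, or 0.0033 without the 3 libraries that stood apart). In IGROV1 replicate 4 of both mutant clones was low, at 2.46 and 2.57 CPM against 7.23 to 9.42 CPM in the other mutant libraries and 9.25 to 12.1 CPM in wild type. Neither clone was called, with log2 fold changes of -0.47 and -0.50 (adjusted p = 0.18 and 0.15), or -0.23 in both without the 3 libraries that stood apart (adjusted p = 0.35 in both).

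BBC3 was called in no mutant by edgeR, and DESeq2 called none either, with 0 at an unadjusted p under 0.05. The gene lies at chr19:47220822-47232766 on the minus strand. It ranged from 38.0 to 55.3 CPM over the IGROV1 groups and from 2.15 to 22.6 CPM over the DU145-derived ones. Replicate 1 of the transduced wild type, one of the libraries that stood apart, held 2.38 CPM where its passages 2 to 4 held 16.8, 17.9 and 11.1 CPM. Without that replicate BBC3 was lower in the transduced clone 1 by 0.93 on the log2 scale (adjusted p = 0.0063, against -0.58 and 0.21 with it).

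Counted by comparison, the members called stood against the share of all genes called as follows. In IGROV1 4 of 10 were called in clone 1, BCL2 and BCL2L11 higher and BCL2L1 and BID lower, where 31.1% of all genes were called. In clone 2 it was 6 of 10, with BCL2L2 added to those higher and BAK1 to those lower, where 30.1% of all genes were called. The median log2 fold change of the members was 0.03 and -0.12, beside 0.00 over all genes in both comparisons. In DU145 0 of 10 were called in clone 1 by edgeR, where 21.7% of all genes were called, although 5 had an unadjusted p under 0.05 and DESeq2 called 2. In DU145 clone 2 2 of 10 were called, BAX and BAK1, both higher, against 20.5% of all genes. In the transduced cells 4 of 10 were called in clone 1, all higher (BCL2L2, BAK1, BID and PMAIP1), against 25.1%, and 2 of 10 in clone 2 (BCL2L2 and BAK1), also higher, against 20.6%. With 10 members these counts are coarse, and their differences from the shares over all genes were not tested.

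**Figure D3:**
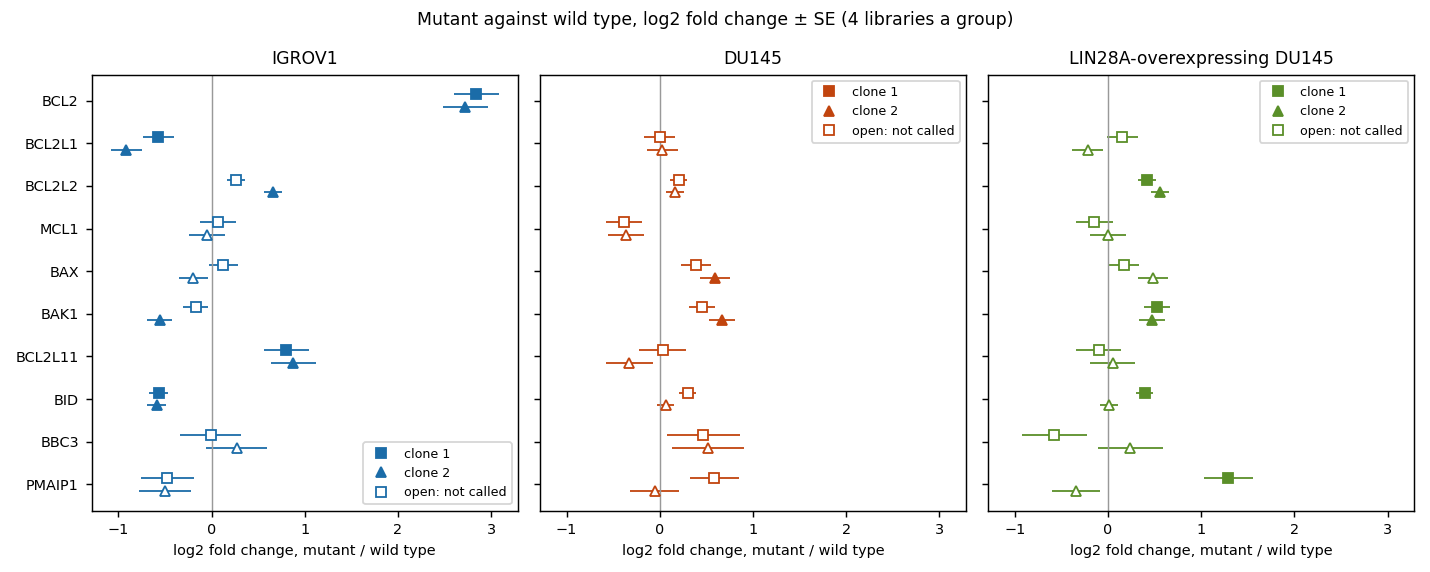
Log2 fold change of each mutant clone against the wild type of its line for the 10 members, with the standard error as a bar and filled symbols for an adjusted p under 0.01. BCL2 is left out of the DU145-derived panels because few reads were counted there. BCL2 stands at 2.84 and 2.72 in IGROV1, and no other member passes 1.29 in any panel.

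Whether the mutants of IGROV1 differed from those of DU145 was tested as the mean effect of the IGROV1 clones minus that of the DU145 clones. This difference was called for 5 of the 10 members, against 24.1% of all genes. BAK1 (-0.92 ± 0.17, adjusted p = 4.4e-05) and BID (-0.76 ± 0.12, adjusted p = 5.1e-06) had lower effects in IGROV1. BCL2L1 did as well (-0.75 ± 0.20, adjusted p = 0.0036). That call was lost without DU145 wild-type replicate 2 or 4 or IGROV1 wild-type replicate 4 (adjusted p = 0.010 to 0.018, difference -0.73 to -0.65). BCL2 had the higher effect in IGROV1 by 3.44 ± 0.74 (adjusted p = 0.00041), a value that rests on 31 DU145 reads over 12 libraries and that became 2.85 with an adjusted p of 0.022 without DU145 wild-type replicate 3, which held 7 of them. BCL2L11 was at the threshold (0.99 ± 0.30, adjusted p = 0.0098). It fell behind the threshold without any one of 16 libraries (adjusted p = 0.011 to 0.040, difference 0.79 to 1.02) and with the replicate block (adjusted p = 0.010). BCL2L2, MCL1, BAX, BBC3 and PMAIP1 were not called, with BAX passing without the 3 libraries that stood apart (-0.65, adjusted p = 0.0041).

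LIN28A itself was compared between the transduced and the plain DU145 cells. In wild type, 0 of 10 members were called by edgeR, where 9.19% of all genes were called, 3 members had an unadjusted p under 0.05 and DESeq2 called 2. That share stands for 1429 of 15556 genes. Without the 3 libraries that stood apart 4316 of 15677 genes were called, and with only the groups compared 215 of 13448. The member nearest the threshold, BCL2L2, was lower with LIN28A by 0.33 ± 0.10 on the log2 scale (adjusted p = 0.014, or 0.0081 without DU145 wild-type replicate 1). BBC3 was 2.29-fold higher (adjusted p = 0.025), and 1.55 higher on the log2 scale without the transduced wild-type replicate 1 (adjusted p = 0.00012). In clone 1 0 of 10 were called by edgeR and by DESeq2, with 1 at an unadjusted p under 0.05, where 3.09% of all genes were called. These were 481 genes, against 1198 of 15677 without the 3 libraries that stood apart. In clone 2 2 of 10 were called, against 18.9% of all genes. BCL2L1 was lower with LIN28A (-0.59 ± 0.17, adjusted p = 0.0068) and BCL2L11 higher (0.86 ± 0.25, adjusted p = 0.0084). Neither call held in every fit without 1 library. The call of BCL2L1 was lost without replicate 3 or 4 of either group (adjusted p = 0.012 to 0.025, log2 fold change -0.62 to -0.55). That of BCL2L11 was lost without transduced replicate 2, 3 or 4 or plain replicate 1, 3 or 4 (adjusted p = 0.019 to 0.053, log2 fold change 0.68 to 0.84). Transduction, selection and passage number cannot be told apart from LIN28A in these comparisons, since the transduced cells were labelled with lower passages than the plain ones.

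Clones of 1 line were set against each other to show how far 2 edited clones can differ. In IGROV1 1 of 10 members was called between the clones, BCL2L2 (0.40 ± 0.09, adjusted p = 0.0013, or 0.0101 without clone 2 replicate 1), against 18.8% of all genes. In DU145 it was 0 of 10 by edgeR and by DESeq2, with 2 at an unadjusted p under 0.05, against 31% of all genes. In the transduced cells it was 2 of 10, PMAIP1 and BID (-0.39 ± 0.10, adjusted p = 0.0011), against 37.5% of all genes. BCL2 in the transduced cells was lower in clone 2 than in clone 1 on 7 against 26 reads (adjusted p = 0.022, or 0.0068 without clone 1 replicate 1 and 0.0023 without clone 2 replicate 3). These counts were not tested against the shares over all genes.

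Leaving out the 3 libraries that stood apart removed no call of a member in these 14 comparisons and added some. Calls over all genes rose as well (of 15556 with them and 15677 without). Against wild type they went from 3372 to 4788 in DU145 clone 1 and from 3908 to 5805 in the transduced clone 1. With LIN28A they went from 1429 to 4316 in wild type and from 2945 to 4958 in clone 2. Between clones they went from 4826 to 6196 in DU145 and from 5839 to 7371 in the transduced cells. In DU145 clone 1 against wild type BAK1 (0.46, adjusted p = 0.0028) and BID (0.30, adjusted p = 0.0049) passed beside PMAIP1. In the transduced clone 1 BBC3 was lower than in wild type (-0.89, adjusted p = 0.0075). With LIN28A, BCL2L2 was lower (-0.37, adjusted p = 0.0048) and BBC3 higher (1.49, adjusted p = 0.00021) in wild type. In clone 2 with LIN28A, BAK1 (-0.41, adjusted p = 0.0052) and PMAIP1 (-0.68, adjusted p = 0.0011) were lower and BBC3 was higher (0.85, adjusted p = 0.00996). Between clones PMAIP1 was lower in DU145 clone 2 (-0.64, adjusted p = 0.0013), and BBC3 higher in the transduced clone 2 (0.79, adjusted p = 0.0092).

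Genes with the pattern of BCL2 were found by Pearson's r of log2 CPM over the 36 libraries, which share lines and clones, so that r describes mostly the difference between groups. The 5 genes nearest to BCL2 were NRXN3 (r = 0.983), ZNF423 (0.981), LOC151121, SHISA9 (0.980 each) and FAM181B (0.979). NRXN3 encodes a synaptic adhesion protein and ZNF423 a zinc finger transcription factor. ZNF423 had a mean of 17.8 CPM in IGROV1 wild type, 69.1 CPM in clone 1 and 86.0 CPM in clone 2. NRXN3 went from 6.39 to 24.8 and 25.3 CPM in the same groups, SHISA9 from 12.1 to 51.5 and 46.2 CPM, and LOC151121 from 1.99 to 7.73 and 6.11 CPM. FAM181B was at 4.54 CPM in wild type and at 18.3 CPM in clone 2. All 5 were at 0.121 CPM or less in every DU145-derived group.

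Other genes of the pathway were read from lists. Of 14 further BCL2-related genes 12 were tested, and in IGROV1 1 was called higher and 5 lower in clone 1, and 1 higher and 3 lower in clone 2, where 31.1% and 30.1% of all genes were called. BIK, a BH3-only protein of the endoplasmic reticulum, fell from 39.7 CPM in wild type to 9.19 CPM in clone 1 (log2 -2.07, adjusted p = 2.3e-09) and 4.23 CPM in clone 2 (-3.26, adjusted p = 1.5e-13). BCL2L15 fell from 4.70 to 0.328 CPM in clone 2 (adjusted p = 2.7e-11), on 331 reads against 23, while clone 1 had 4.61 to 6.29 CPM and was not called. BMF, a BH3-only protein tethered to the cytoskeleton, was called in clone 1 (11.6 to 3.04 CPM, adjusted p = 0.0019). BIK was also lower in DU145 clone 1 (7.04 to 2.28 CPM, adjusted p = 1.7e-05) and in the transduced clone 1 (8.97 to 2.59 CPM, adjusted p = 3.7e-07), but not in either clone 2. BNIP3L and BNIP3, mitochondrial proteins that mark mitochondria for removal and respond to hypoxia, fell most in DU145 clone 2, BNIP3L from 304 to 51.9 CPM (adjusted p = 5.8e-15) and BNIP3 from 166 to 55.4 CPM (adjusted p = 2.8e-14). In the transduced clone 2 BNIP3L stood at 63.3 CPM against 304 CPM (adjusted p = 5.4e-14). BCL2A1, an antiapoptotic relative, had 120 reads in DU145 wild type and 3 in clone 1 (adjusted p = 1.1e-07), 40 and 3 in the transduced counterparts (adjusted p = 0.00017), and 1 read in all IGROV1 libraries. In each DU145-derived mutant 0 of these genes were called higher and 2 to 4 lower, against 20.5% to 25.1% of all genes called in either direction. The list's median lay between -0.11 and 0.13 in the 6 mutants, beside a median within 0.01 of 0 over all genes.

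Among 18 genes of the apoptosome and the caspases, which act after cytochrome c is released, 2 were called higher and 3 lower in IGROV1 clone 1, and 2 and 2 in clone 2, near or below the 31.1% and 30.1% called over all genes. BIRC3, an inhibitor of apoptosis, was the largest of these, falling from 17.6 to 2.24 CPM (log2 -2.86, adjusted p = 2.2e-08) and 2.64 CPM (-2.75, adjusted p = 1.8e-08). It was not called in any DU145-derived mutant. APAF1, the scaffold of the apoptosome, was lower in clone 1 of every line (-1.09 in IGROV1, -0.93 in DU145 and -0.99 in the transduced cells) and was called in no clone 2. VDAC1, a channel of the outer mitochondrial membrane, was lower in clone 2 of both DU145-derived lines (-0.62 in each). DIABLO (0.45 in DU145 clone 2), DFFB (-1.08 in DU145 clone 1), HTRA2 (-0.76 in the transduced clone 1) and CASP9 (0.59 in the transduced clone 2) were each called in 1 mutant. In DU145 the list gave 1 higher and 3 lower in clone 1 and 1 of each in clone 2, and in the transduced cells 1 and 2, and 1 and 1, where 20.5% to 25.1% of all genes were called.

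The death receptor pathway, which reaches mitochondria through BID, was read from 10 genes. TNFRSF10A, the TRAIL receptor DR4, had 548 reads in IGROV1 wild type (7.14 to 8.59 CPM) and 1 read in each mutant clone over 4 libraries (adjusted p = 6.4e-18 and 4.4e-19). It also fell in DU145 clone 2 (31.6 to 13.9 CPM, adjusted p = 1.8e-07) and in the transduced clone 2 (25.9 to 7.57 CPM, adjusted p = 8.2e-11). TNFRSF10B, the receptor DR5, fell in the same 2 clones (log2 -1.07 and -1.24) and in the transduced clone 1 (-0.74), and was not called in IGROV1. CFLAR, an inhibitor of caspase 8, was higher in IGROV1 clone 2 (1.01, adjusted p = 2.2e-07) and lower in DU145 clone 1 (-0.57) and in both transduced clones (-1.02 and -0.62). TRADD, an adaptor, rose in IGROV1 clone 1 (0.73) and DU145 clone 1 (0.75), and CASP10 in IGROV1 clone 2 (1.61). In IGROV1 1 gene of this list was called higher and 3 lower in clone 1, and 3 and 2 in clone 2, against 31.1% and 30.1% of all genes. It was 2 higher and 1 lower in DU145 clone 1, 1 and 2 in clone 2, 1 and 3 in the transduced clone 1 and 0 and 3 in the transduced clone 2, against 20.5% to 25.1%.

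Of 11 regulators of the members, 3 were called higher and 2 lower in IGROV1 clone 1, and 2 higher and 1 lower in clone 2, against 31.1% and 30.1% of all genes. FOXO1, a transcription factor known to drive BCL2L11 and BBC3, rose from a mean of 94.4 CPM to 231 CPM (1.35, adjusted p = 0.00016) and 246 CPM (1.35, adjusted p = 0.00015). It fell in the transduced clone 1 (-1.09, adjusted p = 0.003). TP73, a relative of p53, rose in both IGROV1 clones but from a low level, 0.187 CPM to 0.579 and 1.31 CPM. DDIT3 and ATF4, stress-response factors that can induce PMAIP1 and BBC3, were lower in DU145 clone 1 (-1.96 and -0.44) and were called in no other mutant. E2F1 rose in the transduced clone 1 (1.22, adjusted p = 0.0047). The list gave 0 higher and 2 lower in DU145 clone 1, none in DU145 clone 2, 2 and 1 in the transduced clone 1 and 1 and 0 in the transduced clone 2, against 20.5% to 25.1% of all genes.

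The small RNA libraries of the same 9 groups were read for 33 miRNAs of 9 seed groups that have been described as regulators of the family. A miRNA finds its targets chiefly through bases 2 to 8, its seed. The mature sequences of the miR-200 family are shown because BCL2 has been described as a target of miR-200c, with the seed in capitals, 5′ to 3′, from RefSeq (GRCh38.p14), where 32 of the 33 miRNAs were matched.
hsa-miR-200c-3p: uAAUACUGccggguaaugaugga
hsa-miR-200b-3p: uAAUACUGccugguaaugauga
hsa-miR-429: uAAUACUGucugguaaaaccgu
hsa-miR-141-3p: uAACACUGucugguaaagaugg
hsa-miR-200a-3p: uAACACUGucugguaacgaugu
The first 3 share one seed and the last 2 another. The genes of miR-200c and miR-141 lie together on chromosome 12, with the mature forms at chr12:6963742-6963764 and chr12:6964155-6964176. Those of miR-200b, miR-200a and miR-429 lie together on chromosome 1.

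The chromosome 12 pair was nearly lost from the IGROV1 mutants. miR-200c-3p was at 5413, 5690, 6162 and 5265 CPM of miRNA reads in wild type, at 42.0, 39.7, 42.5 and 32.1 CPM in clone 1 and at 33.4, 35.7, 28.3 and 27.6 CPM in clone 2. The log2 fold change was -7.19 (146-fold lower) in clone 1 and -7.63 (198-fold lower) in clone 2, with adjusted p of 1e-28 and 2.5e-29. miR-141-3p fell from 177 to 276 CPM in wild type to 0.450 to 2.13 CPM in clone 1 (-7.23) and 0.770 to 1.17 CPM in clone 2 (-7.89). The chromosome 1 miRNAs, with the same seeds, fell less and unequally. miR-200b-3p fell by 0.58 in clone 1, where it kept 1481 to 1719 CPM, and by 2.76 in clone 2, where it kept 366 to 447 CPM. miR-429 fell by 0.56 and 2.81. BCL2 mRNA stood at a mean of 70.4 CPM in clone 1 and 68.6 CPM in clone 2.

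**Figure D4:**
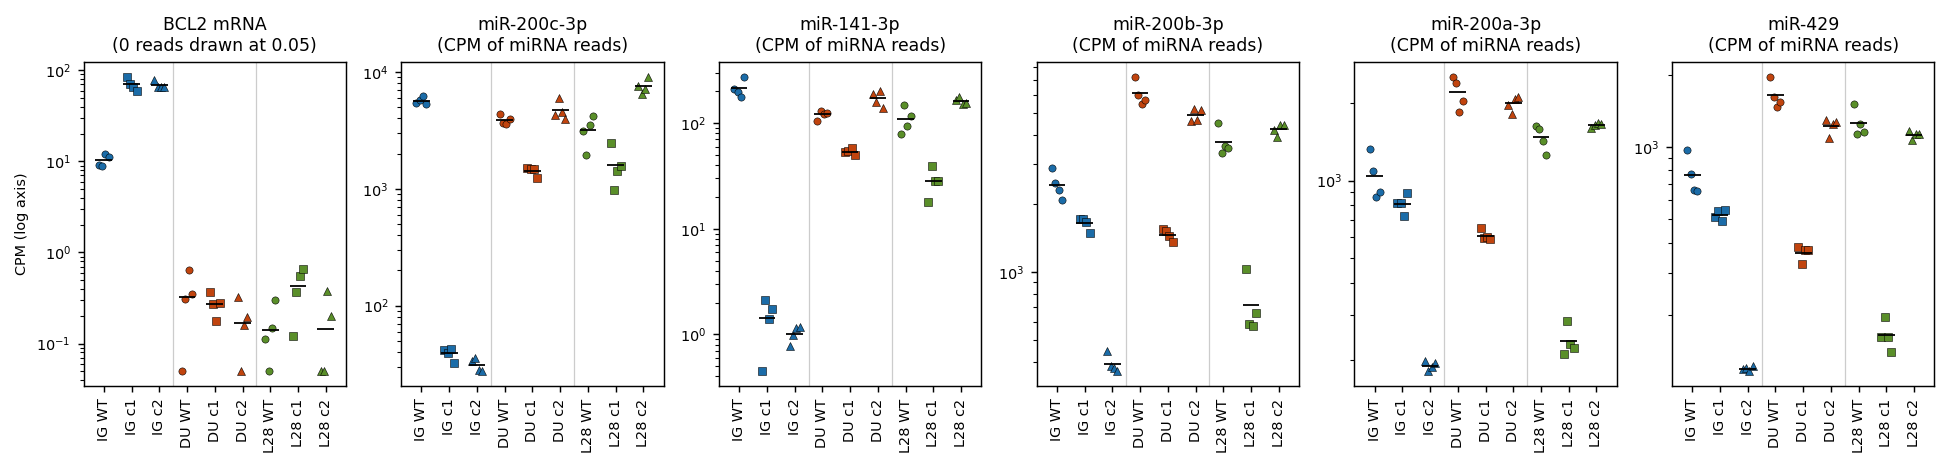
BCL2 mRNA (CPM of mRNA reads) and the 5 miRNAs of the miR-200 family (CPM of miRNA reads) by library, on log axes with the mean of each group as a line. Libraries with 0 BCL2 reads are drawn at 0.05. IG is IGROV1, DU is DU145 and L28 is LIN28A-overexpressing DU145. miR-200c-3p is at 27.6 to 42.5 CPM in the IGROV1 mutants and at 972 CPM or more in every other library.

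In the DU145-derived cells, where BCL2 had few reads, the family also fell in clone 1. miR-200c-3p went from 3551 to 4333 CPM in DU145 wild type to 1233 to 1495 CPM in clone 1 (-1.27, adjusted p = 1.1e-09), and fell by 1.07 in the transduced clone 1. In these clones miR-200b-3p changed by -1.89 and -2.45, miR-200a-3p by -1.67 and -2.63 and miR-141-3p by -1.01 and -1.96. miR-429 was 4.01-fold and 7.55-fold lower. In the clone 2 groups the values depend on the scaling, since the TMM factors of the miRNA libraries averaged 1.26 and 1.35 there and 0.908 and 0.891 in the wild types. Scaled by plain library totals, the median of all miRNAs in these comparisons moved from -0.09 to 0.37 and from -0.15 to 0.42. The call of miR-200b-3p in the transduced clone 2 (-0.42) then turned to 0.19 with an adjusted p of 0.28. miR-429 in DU145 clone 2 was lower under both scalings (-0.88 and -0.42), and miR-200c-3p in the transduced clone 2 was higher under both (0.63 with TMM, adjusted p = 0.00027).

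Over all 33 listed miRNAs, 15 were called in IGROV1 clone 1 (4 higher, 11 lower) where 37.4% of all 929 miRNAs were called, and 18 in clone 2 (5 higher, 13 lower) where 40.7% were. DU145 gave 18 in clone 1 (5 higher, 13 lower) against 30.5%. Clone 2 of DU145 gave 20 (1 higher, 19 lower) against 25.3%, a count that fell to 10 with plain library totals. The transduced cells gave 19 in clone 1 (5 higher, 14 lower) against 34.1%, and 16 in clone 2 (1 higher, 15 lower) against 25.4%, with 9 under plain totals. Outside the miR-200 family, miR-34a-5p, a p53-induced miRNA, fell in IGROV1 (-2.16 and -0.97) and rose in DU145 clone 1 (1.01). Its CPM, taken without TMM, were also higher in DU145 clone 2, at 273 to 434 CPM against 123 to 212 CPM in wild type. miR-34c-5p, of another gene of the miR-34 family, rose in both IGROV1 clones (adjusted p = 6.4e-10 and 2.8e-09) and in DU145 clone 1 (1.26). Its IGROV1 levels were low, at 1.93 to 3.62 CPM in wild type, 11.5 to 16.6 CPM in clone 1 and 12.2 to 17.1 CPM in clone 2. DU145 wild type held 543 to 707 CPM of miR-34c-5p. miR-125b-5p rose in both IGROV1 clones (0.65 and 1.84) and in clone 1 of DU145 and of the transduced cells (0.84 and 1.95). Of the miR-15/16 group, classical regulators of BCL2, miR-16-5p differed by -0.11 and 0.27 in IGROV1 and was not called, although it passed in clone 2 with plain totals (0.39, adjusted p = 0.00092). miR-15b-5p was called in clone 1 (-0.43) and miR-424-5p in clone 2 (1.17). miR-29a-3p was lower in both IGROV1 clones (-0.68 and -0.48), as miR-17-5p (-0.89) and miR-92a-3p (-0.59) were in clone 2.

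The 3′ untranslated regions of the members' MANE Select transcripts (GENCODE release 44, hg38) were then searched on the transcript strand for the 7 bases that pair with each seed. Only 1 seed per group was searched, that of its first listed miRNA with a matched sequence. A listed miRNA whose own seed differs from it is not covered. The miR-200b/c seed pairs with CAGTATT and the miR-141/200a seed with CAGTGTT. BCL2 held 1 match to the first and none to the second, 2820 bases after its stop codon in an untranslated region of 5279 bases, and PMAIP1 held 1 of each. The windows are shown because they are the members' only matches to the 2 seeds of the miR-200 family, with the match in capitals, 5′ to 3′ along the mRNA.
BCL2: gcctcttggccccagaactgtaCAGTATTg
PMAIP1: attacctcacatctgttttcttCAGTATTa
PMAIP1 second match: gagaacactgaaatgttatactCAGTGTTg
They lie at chr18:63125798-63125827 (minus strand), chr18:59904121-59904150 and chr18:59903258-59903287 (plus strand). The PMAIP1 window with CAGTATT is an 8-base match, since an A follows the 7 bases, and the other windows are 7-base matches. CAGTATT occurs in 46.0% of the 1242 untranslated regions closest in length to that of BCL2 and in 16.4% of all 18780, so a match of this kind is common.

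BCL2 also held an 8-base match to the miR-15/16 seed (TGCTGCT) and to the miR-125 seed (CTCAGGG), 2 matches to the miR-17 seed (GCACTTT), and 1 each to the miR-29 (TGGTGCT), miR-25/92 (GTGCAAT) and miR-221 (ATGTAGC) seeds. BCL2L11, which rose in IGROV1, held matches to the miR-17, miR-25/92, miR-221 and miR-15/16 seeds and none to those of the miR-200 family. BCL2L2 held 4 matches to the miR-15/16 seed and 2 to the miR-17 seed. BCL2L1, BAX and BID had no match to any of the 9 seeds, and no member had one to the miR-34 seed (CACTGCC). A match describes letters in a window and was not tested as a site.

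**Figure D5:**
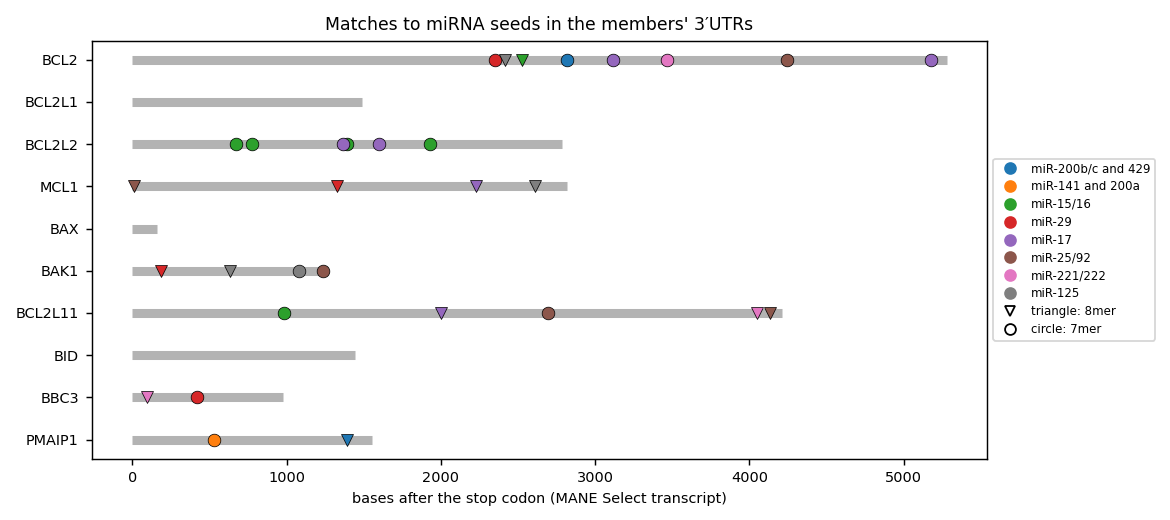
Matches to the listed seeds along the 3′ untranslated region of each member, in bases after the stop codon, with grey bars for the length of the region, triangles for 8-base and circles for 7-base matches. The miR-200b/c match of BCL2 is at 2820 bases, and BCL2L1, BAX and BID have none.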

How the data were processed

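Gene counts of 36 poly(A)-selected mRNA libraries and miRNA counts of 36 small RNA libraries were used as deposited. For mRNA the authors trimmed reads with Trimmomatic 0.39, removed rRNA reads with SortMeRNA, aligned to hg38 with HISAT2 2.1.0 and counted reads per gene with HTSeq, whose version, annotation and strand setting are not given in the sources used here. For small RNA the authors removed adapters and 4 random bases at each end before counting with Chimira. Neither kind of count was normalized before deposit. Rows that name no gene were left out of library sizes (at the median 10.6% of reads without a feature, 1.67% ambiguous and 10.4% not unique).

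All 36 libraries of an assay entered one edgeR 4.0.16 quasi-likelihood fit (R 4.3.3) with TMM factors (0.840 to 1.12 for mRNA), filterByExpr and robust dispersions. The 15556 genes and 929 miRNAs that passed were adjusted by Benjamini-Hochberg over all of them, and a feature was called at an adjusted p under 0.01. Standard errors were derived from the F statistic. CPM are reads per library total without TMM. Log2 CPM used a prior count of 2. CPM per kb used the union of a gene's GENCODE release 44 exons. The floor of a library with 0 reads is 3 reads and covers counting error only. Alternatives were DESeq2 1.42.0, other normalizations, no filter, a replicate block, fits of subsets and an adjusted p under 0.05.

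The members and lists were chosen with earlier results of these data known. Named were all 10 members, the 5 genes of highest Pearson r with BCL2, the targeted genes, up to 2 called genes of largest log2 fold change per list and mutant comparison, and listed miRNAs with a mean over 100 CPM in a group (29 of 33). Replicate numbers are shared between groups. The deviations of same-numbered mRNA libraries correlated over 0.1 in every pair for clone 2 of the LIN28A-overexpressing cells against wild type (0.167 to 0.507) and for DU145 clone 2 against clone 1 (0.116 to 0.533), and not in the other comparisons. The block changed no call of a member in those comparisons. Tables of a second miRNA caller were not used, since their columns could not be matched to the labels.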

Additional observations from a re-analysis of the deposited data

Results flagged for a closer look

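Among 90 group values of the members and 45 of the miR-200 family, each of 4 libraries, 8 held a library far from the other 3 of its group by Dixon's test. Chance flags about 1 in 20 groups. The highest BCL2 value of IGROV1 clone 2 was 79.0 CPM, in replicate 1. The lowest BCL2L2 value of IGROV1 wild type was 22.6 CPM, and the highest MCL1 value of clone 2 of the LIN28A-overexpressing cells was 826 CPM. BAK1 was marked 3 times, with a highest value of 27.9 CPM in clone 1 of the LIN28A-overexpressing cells, a highest value of 39.9 CPM in DU145 clone 2 and a lowest value of 29.6 CPM in IGROV1 wild type. PMAIP1 had a lowest value of 2.57 CPM in IGROV1 clone 2 (replicate 4). miR-200c-3p had a lowest value of 1233 CPM in DU145 clone 1.

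The mean effect of the IGROV1 mutants differed from that of the DU145 mutants for 5 members by the edgeR test of the difference, as given in the report. The differences on the log2 scale were 3.44 for BCL2 (adjusted p = 0.00041), -0.75 for BCL2L1 (0.0036), -0.92 for BAK1 (4.4e-05), 0.99 for BCL2L11 (0.0098) and -0.76 for BID (5.1e-06).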

How the results depend on the processing

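Over 140 values of the members and 2531 alternative fits of them, 0 called values changed sign, 111 fits lost a call and 44 gained one. Of 35 called values, 24 lost the call in some fit and 11 kept it in all, among them BCL2 in both IGROV1 clones. The cause of each change below was not tested, except that fits of replicates 1 and 2 only, of replicates 3 and 4 only, and of only the groups compared hold fewer libraries. Over all genes the calls in the 6 mutants also fell. They numbered 3192 to 4835 of 15556 genes in the full fit, 1491 to 2887 of 16012 with replicates 1 and 2 only and 1005 to 2777 of 15474 with replicates 3 and 4 only. The members called in IGROV1 clone 1 went from 4 to 2 with replicates 1 and 2 only, and ranged from 2 to 3 over fits without 1 library. IGROV1 clone 2 went from 6 to 3 with replicates 1 and 2 only (5 to 6 without 1 library). DU145 clone 1 went from 0 to 2 with an adjusted p under 0.05, upper quartile normalization or DESeq2's Wald test, to 1 with the replicate block, replicates 1 and 2 only or only the groups compared, and to 3 without the 3 libraries that stand apart (0 to 2 without 1 library). DU145 clone 2 went from 2 to 0 with replicates 1 and 2 only and to 1 with replicates 3 and 4 only (1 to 2 without 1 library). Clone 1 of the LIN28A-overexpressing cells went from 4 to 1 with replicates 1 and 2 only or only the groups compared and to 0 with replicates 3 and 4 only (3 to 5 without 1 library). Clone 2 of these cells went from 2 to 1 with DESeq2's size factors, no filter on low counts or only the groups compared, and to 0 with either pair of replicates (1 to 2 without 1 library). The difference between lines went from 5 to 2 and 3 with replicates 1 and 2 or 3 and 4 only (3 to 5 without 1 library). With LIN28A, wild type went from 0 to 1 with DESeq2's size factors and to 2 with an adjusted p under 0.05, DESeq2's Wald test or without the 3 libraries (0 to 1 without 1 library), and clone 2 from 2 to 4 with an adjusted p under 0.05 or only the groups compared, to 5 without the 3 libraries, and to 1 with no filter or replicates 1 and 2 only (0 to 2 without 1 library). Between clones, IGROV1 went from 1 to 2 with an adjusted p under 0.05 and to 0 with either pair of replicates or only the groups compared (0 to 1 without 1 library), DU145 from 0 to 2 with an adjusted p under 0.05 and to 1 with only the groups compared or without the 3 libraries, and the LIN28A-overexpressing cells from 2 to 1 with replicates 1 and 2 only (2 to 3 without 1 library).

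As a block, the replicate number moved 1 further call, BCL2L11 in the difference between lines (0.96, adjusted p = 0.01). The number pairs few groups, since same-numbered libraries correlated in only some comparisons. Wild type against wild type kept 7 calls in every fit without 1 library, and 4316 genes were called between the DU145 wild types without the 3 libraries against 1429 with them.

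Listed miRNAs called in DU145 clone 2 went from 20 to 13 with DESeq2's size factors, its Wald test, no filter or unmodified reads only, and to 10 with plain library totals (13 to 16 without 1 library). In clone 2 of the LIN28A-overexpressing cells they went from 16 to 9 with plain library totals (13 to 16). The other mutants ranged over 13 to 15 and 17 to 18 in IGROV1, 17 to 18 in DU145 clone 1 and 17 to 21 in the LIN28A-overexpressing clone 1. With plain totals the log2 fold change turned to 0.14 for miR-15b-5p, 0.13 for miR-106a-5p, 0.10 for miR-92a-3p, 0.094 for miR-221-3p, 0.15 for miR-222-3p and 0.091 for miR-125a-5p in DU145 clone 2, and to 0.19 for miR-200b-3p, 0.090 for miR-16-5p and 0.59 for miR-34a-5p in clone 2 of the LIN28A-overexpressing cells. Summing a miRNA over precursor rows was not run, as the tables hold 1 row per mature miRNA. Unmodified reads, plain totals and fits without the 3 libraries were chosen after seeing the data. With 3 reads as the floor, BCL2 cannot be followed below 0.155 to 0.375 CPM in the libraries where it had 0 reads.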
